A study of Mus musculus with 8 samples.

Results

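The direct-pathway striatal neuron genes described here are Isl1, Ebf1, Tac1, Drd1, Chrm4, Eya1 and Sfxn1, 7 genes taken by symbol from a deposited table of 16913 genes, all 7 of which were listed. The study sequenced RNA of the lateral ganglionic eminence (LGE), the embryonic zone that gives rise to the projection neurons of the striatum, dissected from mouse embryos at embryonic day 14.5. The Meis2-CKO group (4 samples) had the genotype Dlx5/6-Cre;Meis2F/F, in which both Meis2 alleles were floxed. The Ctrl group (4 samples) consisted of littermates with the genotype Dlx5/6-Cre;Meis2F/+, in which a single Meis2 allele was floxed. Both groups carried the Dlx5/6-Cre driver, which acts in Dlx-expressing cells of the ventral forebrain and leaves other cells of the dissected tissue unrecombined, and both were on a mixed background of C57BL/6J and CD1. The Ctrl embryos are therefore not wild type. The comparison asks how these genes stood in LGE after conditional loss of Meis2, a homeodomain transcription factor that the study's title ties to striatal neuronal fate.

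Striatal projection neurons fall into a direct-pathway class, which projects to the substantia nigra and the entopeduncular nucleus and carries the D1 dopamine receptor and substance P, and an indirect-pathway class, which projects to the external globus pallidus and carries the D2 dopamine receptor and enkephalin. The LIM-homeodomain factor Isl1 and the helix-loop-helix factor Ebf1 act in the differentiation of the direct-pathway class. An embryonic LGE holds progenitors and young neurons, and the receptor and peptide genes of both classes increase later, as the neurons mature.

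Values are the authors' mean signal in each genotype, on a scale that the file headers do not name. The means have no standard deviation, and single samples are not analysed here, because 8 columns of values have names that match no sample label. No replicate error can therefore be set beside any value, and whether the groups overlap is not known. Calls rest on the adjusted p-values in the authors' deposited table at a threshold of 0.05, and no source used here names the test behind them. The authors' deposited log2 fold change equalled the log2 ratio of the means after 0.125 was added to each, plus a constant 0.01, to within 0.01 for 16904 of 16913 genes. The sequencing depth is unknown.

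Isl1, Ebf1 and Tac1 fell in Meis2-CKO LGE to between 12.1% and 21.6% of their Ctrl means. The means of Drd1 and Chrm4 were low in both genotypes and lower in Meis2-CKO without passing the test. The mean of Sfxn1 was nearly equal in both genotypes, and that of Eya1 was higher in Meis2-CKO without passing. In all, 3 of 7 genes (42.9%) passed, all 3 lower, where 0.544% of the whole table passed as lower. Over the 7 genes the log2 fold change had a median of -1.69, against 0.01 over all 16913 genes. The genes were chosen with earlier results of these data known, so these counts describe them and test nothing further.

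**Figure D1:**
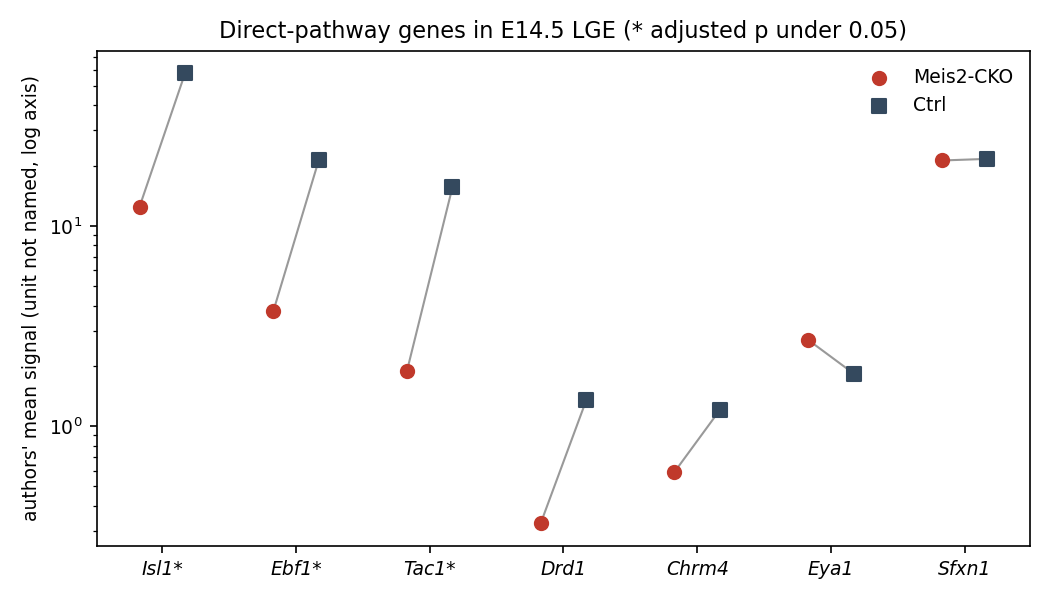
Authors' mean signal (log axis, unit not named) of each direct-pathway gene in Meis2-CKO (red circles, left) and Ctrl (dark squares, right); a line joins the means of a gene and an asterisk marks an adjusted p under 0.05. Isl1, Ebf1 and Tac1 stand apart by wide steps, Drd1 and Chrm4 lie near or under 1, and Sfxn1 is level. No error is shown because the means carry none.

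The upstream sequences of the genes that fell are shown because they are the part of each gene at which transcription factors such as Meis2 could bind near the start. RefSeq promoter windows (GRCm38.p6) matched 6 of the 7 genes in 8 windows, and Eya1 had no entry. Isl1 and Ebf1 are given with each CG dinucleotide in capitals, and Tac1 with a homeodomain-type TAATTA in capitals. TAATTA is not the Meis-type motif, which is read here as TGACAG. The windows are chr13:116309690-116309938 on the minus strand for Isl1, chr11:44619978-44620227 on the plus strand for Ebf1, at the second of its 2 annotated RefSeq starts and within the annotated span of the gene, and chr6:7554949-7554978 on the plus strand for Tac1.
Isl1: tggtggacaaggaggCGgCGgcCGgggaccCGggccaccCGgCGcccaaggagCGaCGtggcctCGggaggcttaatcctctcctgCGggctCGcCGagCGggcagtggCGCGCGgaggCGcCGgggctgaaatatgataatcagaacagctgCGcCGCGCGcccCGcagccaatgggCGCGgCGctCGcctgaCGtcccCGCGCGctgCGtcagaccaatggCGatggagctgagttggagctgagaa
Ebf1: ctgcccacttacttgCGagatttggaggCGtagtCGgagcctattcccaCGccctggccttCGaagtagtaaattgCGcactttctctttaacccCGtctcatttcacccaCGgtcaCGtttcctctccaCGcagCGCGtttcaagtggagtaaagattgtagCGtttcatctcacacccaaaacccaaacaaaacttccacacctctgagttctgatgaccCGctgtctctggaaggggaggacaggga
Tac1: cgagggggcggcTAATTAaatattgagcag

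The Isl1 stretch held 33 CG dinucleotides in 249 bases, and 4.03% of all 32851 promoter windows of 250 bases held at least as many. The Ebf1 stretch held 14 in 250 bases, a number reached by 29.4% of windows, and the median window held 6. The window at the other Ebf1 start, which is not printed, held 9. The hexamer TGACAG, read on both strands as a Meis-type motif, was found in none of the 8 windows of the 250 bases upstream of a start, while 15.9% of all windows held it. The palindrome TAATTA occurred once, in Tac1, at 100 to 95 bases upstream of the RefSeq start, and 4.84% of all windows held it. That match lies within an exon that GENCODE M21 annotates for Tac1 from an earlier start. These are letter matches in short windows and say nothing about binding there or at distant enhancers.

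Among the transcription factors, Isl1 had the smallest deposited p of the 7 genes and the ninth smallest of the whole table. Isl1 (ENSMUSG00000042258, chromosome 13, 116298281 to 116309689, minus strand, GRCm38), which promotes the direct-pathway fate, had a mean signal of 12.5 in Meis2-CKO LGE and 57.9 in Ctrl LGE. The authors' deposited table gives a log2 fold change of -2.19, or 4.56-fold lower, with an adjusted p = 7.8e-26. No other annotated gene overlaps it. Among the 5124 protein-coding genes with a higher mean of at least 20, it had the fifth lowest log2 fold change. Isl1 reached a mean of 20 only in Ctrl. A rank within a range set by the higher mean is partly fixed by that choice, so such ranks are description only.

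Ebf1 (ENSMUSG00000057098, chromosome 11, 44617317 to 45008091, plus strand), a helix-loop-helix factor needed for direct-pathway axons to reach their target, had a mean signal of 3.75 in Meis2-CKO LGE and 21.3 in Ctrl LGE. For Ebf1 the authors' deposited table gives a log2 fold change of -2.46, or 5.49-fold lower, with an adjusted p = 1.34e-10. An antisense gene lies within its span, but its exons do not overlap those of Ebf1 and it was not among the listed genes. Only 2 of the same 5124 genes had a lower log2 fold change than Ebf1. Ebf1 is also active in pericytes, so genes of the vessel wall are given below.

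Eya1, a transcriptional coactivator and phosphatase that works with DNA-binding homeobox partners, was the single gene of the 7 with a higher mean in the knockout. Eya1 (ENSMUSG00000025932, chromosome 1, 14168954 to 14310235, minus strand) had a mean signal of 2.69 in Meis2-CKO LGE and 1.83 in Ctrl LGE. The authors' deposited table gives a log2 fold change of 0.54 (unadjusted p = 0.404), which did not pass. Of the 2624 protein-coding genes with a higher mean of 1 to under 5, 61 had a log2 fold change at least as high, Eya1 among them.

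Tac1 had the largest fold change of the 7 genes. Tac1 (ENSMUSG00000061762, chromosome 6, 7554879 to 7565834, plus strand), which encodes the precursor of substance P and neurokinin A, had a mean signal of 1.89 in Meis2-CKO LGE and 15.6 in Ctrl LGE. For Tac1 the authors' deposited table gives a log2 fold change of -2.95, or 7.75-fold lower, with an adjusted p = 1.64e-09. It had the smallest p of the 4433 protein-coding genes with a higher mean of 5 to under 20, and 10 of these had a lower log2 fold change. Tac1 reached that range only in Ctrl, so its rank there is partly fixed by the choice of range.

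The receptors were near the lower end of the table's scale. Drd1 (ENSMUSG00000021478, chromosome 13, 54051183 to 54055705, minus strand), the D1 dopamine receptor that raises cyclic AMP, had a mean signal of 0.328 in Meis2-CKO LGE and 1.34 in Ctrl LGE. In the authors' deposited table its log2 fold change was -1.69 (unadjusted p = 0.105), and it did not pass. Only 7 of the 2624 protein-coding genes at a higher mean of 1 to under 5 had a lower log2 fold change. Drd1 reached that range only in Ctrl, so this rank too is partly fixed by the choice of range. At that level 2 of the 2624 genes passed as lower (0.0762%), against 23 of 5124 (0.449%) at a higher mean of at least 20. The deposited test thus called few genes at the level of Drd1, and a difference there was not shown to be absent.

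Chrm4 (ENSMUSG00000040495, chromosome 2, 91927249 to 91928688, plus strand), the M4 muscarinic receptor that couples to inhibitory G proteins in direct-pathway neurons, had a mean signal of 0.59 in Meis2-CKO LGE and 1.21 in Ctrl LGE. In the authors' deposited table its log2 fold change was -0.88 (unadjusted p = 0.360), which did not pass. In the same range of level, which Chrm4 also reached only in Ctrl, 43 genes including Chrm4 itself had a log2 fold change this low. Chrm4 lies on the chromosome of the floxed gene, 23.9 Mb from Meis2, between it and Cwc22. Cwc22, named after its values were seen, encodes a splicing factor, lies 14.0 Mb from Chrm4 and had a mean of 22.5 in Meis2-CKO LGE and 426 in Ctrl LGE in the authors' deposited table. The embryos were on a mixed background, and a difference between the groups in the strain of origin of this chromosome was not tested.

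Sfxn1, a mitochondrial serine transporter whose RNA is enriched in adult direct-pathway neurons, had nearly equal means in both genotypes. Sfxn1 (ENSMUSG00000021474, chromosome 13, 54071869 to 54108342, plus strand) had a mean signal of 21.2 in Meis2-CKO LGE and 21.6 in Ctrl LGE. For Sfxn1 the authors' deposited table gives a log2 fold change of -0.01 (unadjusted p = 0.948). Of the 5124 protein-coding genes with a higher mean of at least 20, 1874 had a log2 fold change as low as that of Sfxn1. Sfxn1 begins 16.2 kb from Drd1 on chromosome 13, and Isl1 is on the same chromosome. The difference in fold change between Sfxn1 and Drd1 was not tested.

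**Figure D2:**
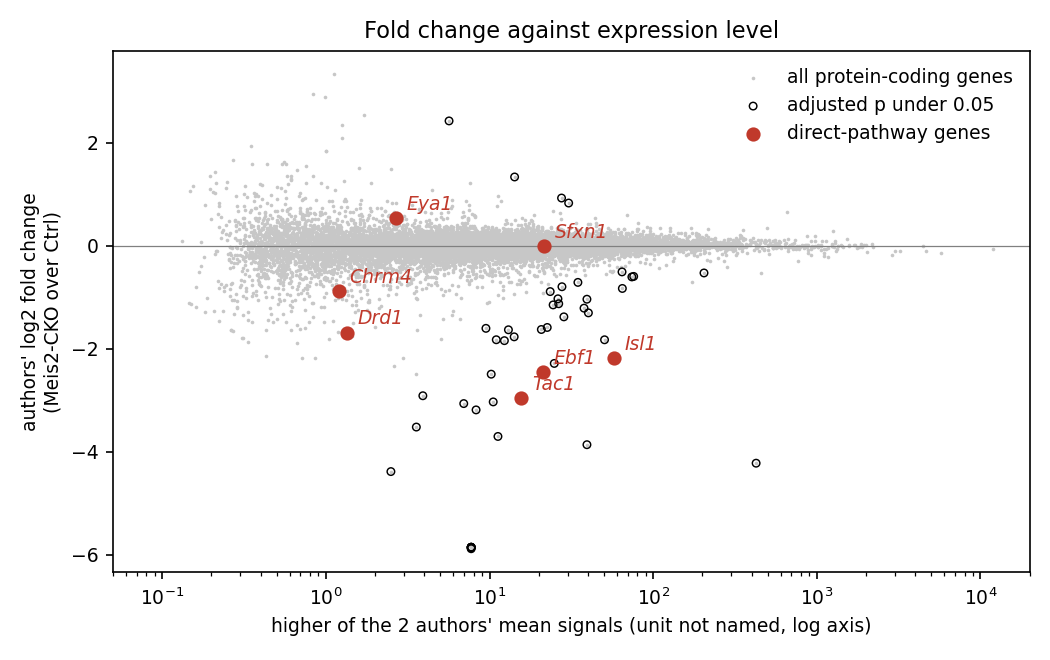
Authors' log2 fold change (Meis2-CKO over Ctrl) against the higher of the 2 genotype means (log axis, unit not named) for protein-coding genes (grey), those with an adjusted p under 0.05 (open circles) and the direct-pathway genes (red). Isl1, Ebf1 and Tac1 lie below the bulk of genes at the same higher mean, which for each of them is the Ctrl mean. Drd1, also placed by its Ctrl mean, lies low among genes of low mean, and Eya1 and Sfxn1 lie within the cloud.

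The size of a fold change at low means depends on the constant added to them. The plain ratio of the Ctrl mean to the Meis2-CKO mean was 4.64 for Isl1, 5.68 for Ebf1 and 8.26 for Tac1, close to the authors' values. For Drd1 the plain ratio was 4.11, where the authors' deposited table gives 3.23-fold lower. With a pseudocount of 1 the log2 value of Drd1 was -0.82 and that of Chrm4 was -0.47, against -2.13 for Isl1, -2.23 for Ebf1 and -2.52 for Tac1. The authors' log2 value for Tac1 was -2.95, so its size also depended on the constant. Neither the direction of any of the 7 genes nor the order of Tac1, Ebf1 and Isl1 changed between these scales.

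**Figure D3:**
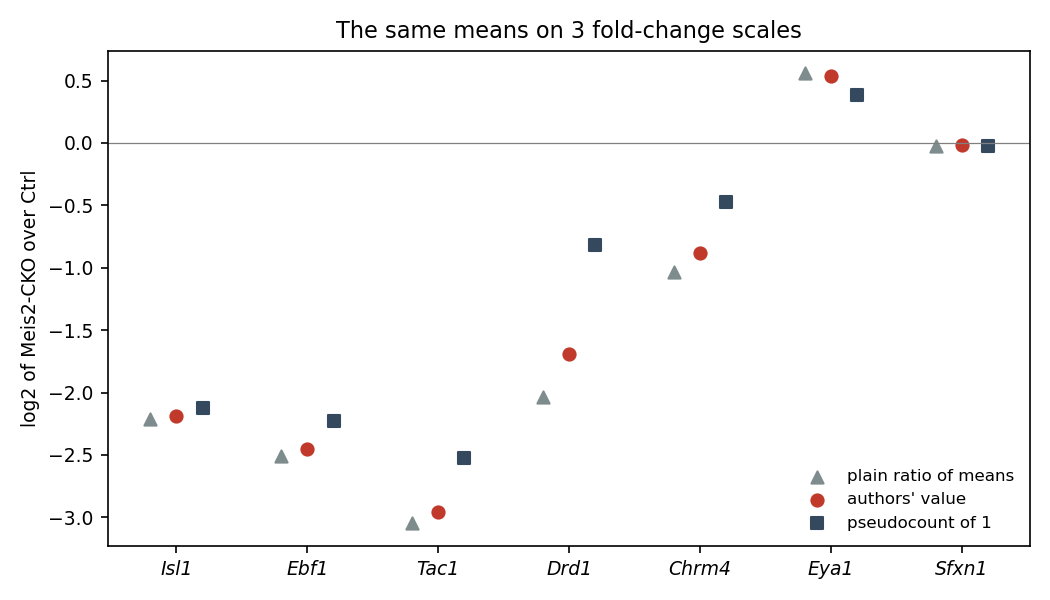
Log2 of Meis2-CKO over Ctrl for each direct-pathway gene as the plain ratio of means (grey triangles), the authors' value (red circles) and with a pseudocount of 1 (dark squares). The 3 scales lie close together for Isl1 and Ebf1 and spread more for Tac1, Drd1 and Chrm4. The means of Drd1 and Chrm4 are low.

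The targeted gene Meis2 was lower in the knockout, with a mean signal of 140 in Meis2-CKO LGE and 204 in Ctrl LGE (log2 fold change -0.53). The authors' deposited table gives it an adjusted p = 0.00195, past the threshold. The value covers the whole gene and cells in which the driver is not active, and it does not measure recombination. The Y-linked Eif2s3y, Ddx3y and Kdm5d also passed as lower in the authors' deposited table. Eif2s3y had a mean of 14.0 in Meis2-CKO and 50.5 in Ctrl. Ddx3y stood at 4.03 in Meis2-CKO and 14.1 in Ctrl, and Kdm5d at 4.09 in Meis2-CKO and 13.05 in Ctrl. The Y-linked Uty, at 2.36 in Meis2-CKO and 6.60 in Ctrl, was lower without passing. Xist stood at 256 in Meis2-CKO and 78.0 in Ctrl and did not pass (adjusted p = 0.985 in the authors' values). These Y-linked genes were thus all lower and Xist higher in Meis2-CKO, and a difference in embryo sex between the groups was not tested. Of the 7 genes none is on a sex chromosome; the part of embryo sex in their values was not tested. In dissected tissue, fewer cells of a type and less RNA per cell cannot be told apart.

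By the size of its fold change, Crabp1, Ebf1, Rarb and Eif2s3y were among the 5 genes closest to Isl1, of the called protein-coding genes with a higher mean of at least 5. Their deposited log2 fold changes lay within 0.363 of that of Isl1. Crabp1, a retinoic acid binding protein, had a mean of 4.96 in Meis2-CKO LGE and 24.9 in Ctrl LGE. Rarb, a retinoic acid receptor, had a mean of 1.70 in Meis2-CKO LGE and 10.2 in Ctrl LGE. Likeness was measured over only 2 genotype means, and Eif2s3y is Y-linked.

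Other genes of direct-pathway and striosome neurons had mostly lower means and no call, where 0.544% of all genes were called lower. Of 10 such genes the table held 8, of which 7 lay below 0 in log2 fold change, 0 passed, and 2 were under 0.05 by the authors' deposited unadjusted p, as were 2.17% of all genes. The list median was -0.52. Foxp2, a forkhead factor, had a mean of 12.4 in Meis2-CKO LGE and 19.0 in Ctrl LGE (log2 fold change -0.60), and Bach2, a leucine zipper factor, had 9.37 in Meis2-CKO LGE and 15.1 in Ctrl LGE (log2 fold change -0.67). Pdyn and Slc35d3 were not among the listed genes.

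Families and partners of the 7 genes gave no call. Over all genes 0.544% were called lower, so 0 calls in lists this short is near that share. The 12 listed LIM-homeodomain and LIM cofactor genes, relatives and binding partners of Isl1, centred at -0.17 (median log2 fold change), with 7 below 0 and 5 above. In that list the adaptor gene Lmo4 had a mean of 74.6 in Meis2-CKO LGE and 96.1 in Ctrl LGE (log2 fold change -0.35), which gave the lowest p of the list (adjusted p = 0.290 per the authors' deposited table), and Ldb2 had 6.53 in Meis2-CKO LGE and 9.89 in Ctrl LGE. The 5 genes of the Ebf family and its zinc-finger partners had a median of 0.24, with 4 above 0, where Ebf1 itself fell. Ebf3 had a mean of 2.52 in Meis2-CKO LGE and 1.81 in Ctrl LGE, and the partner gene Zfp521 had 4.72 in Meis2-CKO LGE and 6.62 in Ctrl LGE. The 7 listed relatives of Eya1 and genes of its partner families had a median of 0.08. Among them Six3, a homeobox gene of the indirect-pathway class, had a mean of 16.7 in Meis2-CKO LGE and 25.5 in Ctrl LGE, and Dach1 had 7.65 in Meis2-CKO LGE and 9.60 in Ctrl LGE. The 4 sideroflexin relatives of Sfxn1 had log2 fold changes from -0.17 to 0.22, with Sfxn3 at 14.3 in Meis2-CKO and 16.2 in Ctrl, and Sfxn2 at 5.36 in Meis2-CKO and 4.61 in Ctrl. By the deposited unadjusted p, 1 of the 12 LIM genes (Lmo4) and 1 of the 7 relatives and partners of Eya1 (Six3) were under 0.05. The other 2 lists held 0, and the share over all genes was 2.17%.

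Genes around the peptide and the receptors were likewise not called, which is again near the 0.544% called lower over all genes. For the 6 listed tachykinin precursor, receptor and processing genes the median was 0.00 on the log2 scale, although Tac1 fell. The peptide-processing genes Cpe (115 in Meis2-CKO and 123 in Ctrl) and Pcsk2 (0.965 in Meis2-CKO and 1.52 in Ctrl) did not pass. Among the 9 signalling partners of the D1 receptor the median was -0.15. Gnal, the G protein subunit that couples the D1 receptor to adenylyl cyclase in striatum, had a mean of 6.34 in Meis2-CKO LGE and 10.4 in Ctrl LGE (log2 fold change -0.69). Prkar2b, a regulatory subunit of protein kinase A, had 30.4 in Meis2-CKO LGE and 39.0 in Ctrl LGE (log2 fold change -0.34). The other dopamine receptor listed, Drd2, had 1.05 in Meis2-CKO LGE and 3.59 in Ctrl LGE (log2 fold change -1.65). The 7 listed muscarinic receptor and inhibitory G protein genes had a median of -0.07, with Gnai2 at 210.5 in Meis2-CKO and 185 in Ctrl, and Gnai3 at 71.7 in Meis2-CKO and 76.1 in Ctrl. By the deposited unadjusted p, 1 of the 9 signalling partners (Prkar2b) and the single listed dopamine receptor, Drd2, were under 0.05. The tachykinin and muscarinic lists held 0, and the share over all genes was 2.17%.

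Set beside the other projection neuron genes, the 7 genes held 3 calls of 7 listed and the indirect-pathway list 0 of 6. The list of genes of both classes held 5 of 11, with Meis2 among the 5. All these calls were lower in Meis2-CKO. Over all genes 0.544% were called lower, so 0 calls of 6 is near that share. The medians were -1.69 for the direct-pathway genes, -1.01 for the indirect-pathway list and -0.57 for the genes of both classes. By the deposited unadjusted p, 4 of 6 in the indirect-pathway list were under 0.05, with Six3, Adora2a and Drd2 lower and Sp9 higher in Meis2-CKO. By the same p, 3 of the 7 direct-pathway genes and 7 of the 11 genes of both classes were under 0.05. The share over all genes was 2.17%. Sp9, a zinc-finger factor named after its values were seen, had a mean of 44.5 in Meis2-CKO LGE and 34.3 in Ctrl LGE (log2 fold change 0.39). Adora2a, an adenosine receptor, had a mean of 1.84 in Meis2-CKO LGE and 5.17 in Ctrl LGE (log2 fold change -1.42). Penk, the enkephalin gene, was named after its values were seen. It had a mean of 0.58 in Meis2-CKO LGE and 2.01 in Ctrl LGE (log2 fold change -1.58) and did not pass. The log2 fold change of Drd2 was -1.65, beside -1.69 for Drd1. The 5 calls of both classes were Foxp1, Zfp503, Rarb, Bcl11b and Meis2 itself, with log2 fold changes from -2.49 to -0.53. The value of -0.53 is that of Meis2, the targeted gene, so its call follows from the design. Whether the direct-pathway genes differ from either list was not tested.

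**Figure D4:**
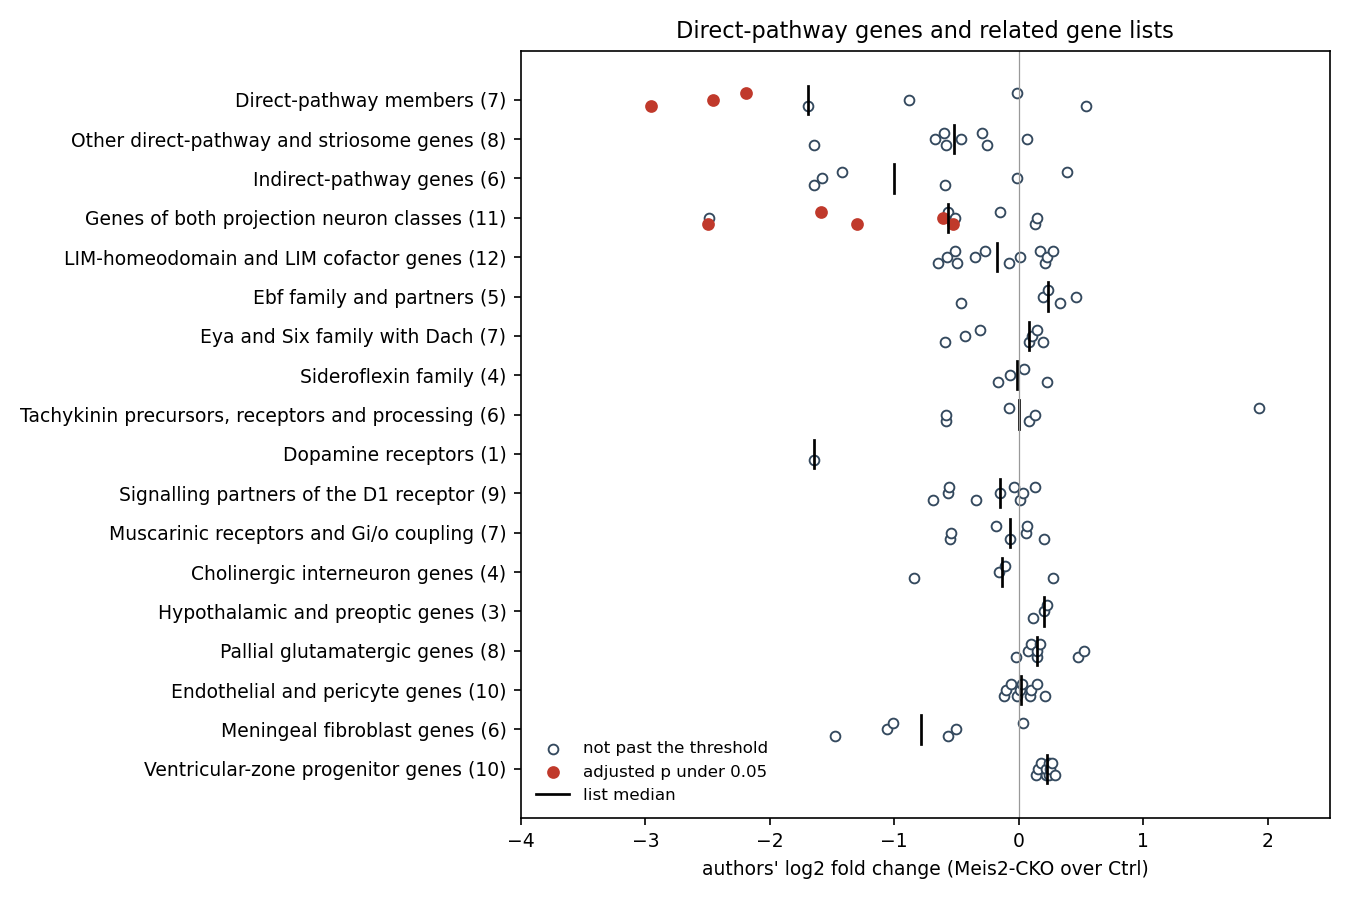
Authors' log2 fold change (Meis2-CKO over Ctrl) of each listed gene in the direct-pathway group and 17 related lists, with the number listed in brackets; filled red circles passed an adjusted p of 0.05 and black bars are list medians. Calls appear among the direct-pathway genes (3) and the genes of both projection neuron classes (5, with the targeted Meis2), all below 0. Over all genes 0.544% were called lower.

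Markers of other cells that can carry these RNAs held no gene past the threshold, near the 0.544% called lower over all genes. Isl1 also marks cholinergic interneurons, and of 9 genes of those cells 4 were listed, without Chat, Slc5a7 and Slc18a3; they summed to 6.42 in Meis2-CKO and 7.12 in Ctrl, with Lhx8 at 3.72 in Meis2-CKO and 3.08 in Ctrl, and Zic4 at 1.31 in Meis2-CKO and 2.48 in Ctrl. Of 10 hypothalamic and preoptic genes 3 were listed, which summed to 7.46 in Meis2-CKO and 6.80 in Ctrl, with Nkx2-1 at 5.54 in Meis2-CKO and 5.15 in Ctrl, and Pomc at 1.68 in Meis2-CKO and 1.45 in Ctrl. The 10 endothelial and pericyte genes summed to 64.8 in Meis2-CKO and 63.3 in Ctrl, with Pecam1 at 7.50 in Meis2-CKO and 6.53 in Ctrl, and Rgs5 at 12.7 in Meis2-CKO and 12.0 in Ctrl. The 6 listed meningeal fibroblast genes summed to 3.60 in Meis2-CKO and 6.20 in Ctrl, with a median log2 fold change of -0.79; Col1a2 stood at 0.802 in Meis2-CKO and 1.82 in Ctrl, and Col3a1 at 1.42 in Meis2-CKO and 2.18 in Ctrl. The part of these cells in the values of Isl1 and Ebf1 was not tested.

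Pallial genes, present in dissections that include some cortex, summed to 213 in Meis2-CKO and 187 in Ctrl over 8 genes, with Neurog2 at 27.4 in Meis2-CKO and 19.2 in Ctrl, and Eomes at 18.2 in Meis2-CKO and 13.2 in Ctrl. Each of 10 ventricular-zone progenitor genes was above 0 in log2 fold change (median 0.23) and none passed the threshold; Nes stood at 126 in Meis2-CKO and 104 in Ctrl, and Sox2 at 142 in Meis2-CKO and 121 in Ctrl. The part of a different share of progenitors or cortex in the lower means of the direct-pathway genes was not tested. The summed signal in Meis2-CKO over that in Ctrl was 1.13 for the progenitor list and 1.14 for the pallial list. By the deposited unadjusted p, 1 of the 10 progenitor genes (Nes) and 1 of the 8 pallial genes (Neurog2) were under 0.05. The other marker lists held 0, and the share over all genes was 2.17%.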

How the data were processed

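RNA-seq of LGE from 4 Meis2-CKO and 4 Ctrl samples was analysed from 1 deposited table of 16913 genes. Per the submitters' processing notes, FastQC 0.11.5, HISAT2 2.1.0, StringTie 1.3.1 and the builds GRCm38.p2 and mm10 were used, with roles not given. The mean signal per genotype was averaged by the authors, per the file headers, in an unnamed unit. The log2 fold change (Meis2-CKO over Ctrl), p-value and adjusted p-value are the authors' deposited values. The deposited adjusted p equals a Benjamini-Hochberg adjustment over all genes. The median deposited p-value was 0.760.

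A further 8 columns appear to hold single libraries, but their names could not be matched to a sample and these were not used. The planned fit on single libraries was therefore not run, and the authors' values stand in its place. Samples were grouped by title. Depth is unknown.

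The 7 genes and 17 related gene lists were chosen with earlier results of these data known. Named are the 7 genes, Meis2, the called genes of each list or otherwise its 2 genes of smallest p with a higher mean of at least 1, and the 5 called protein-coding genes nearest to Isl1 in log2 fold change; a single gene that the rule names is not reported here. Cwc22, Sp9, Penk and the sex-linked genes were named after their values were seen. Gene positions and exons came from GENCODE M21 (GRCm38), matched by gene ID for 16861 genes, and level ranges used protein-coding genes of at least 300 nt of exon. Promoter windows (250 bases upstream) came from RefSeq on GRCm38.p6. The adjustments were tested on simulated p-values. Tables were handled with pandas 2.3.3 and numpy 2.4.6 in Python 3.11.15, with scipy 1.17.1 for the simulated check and matplotlib 3.10.9 for figures.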

Additional observations from a re-analysis of the deposited data

How the results depend on the processing

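Isl1, Ebf1 and Tac1 passed under all 7 alternatives tried: a higher mean of at least 1 or at least 2, a pseudocount of 1, centring on the median, the Benjamini-Yekutieli adjustment, genes of 300 nt or more, and a fold change of at least 1.5. All 7 reuse the deposited unadjusted p-values. The pseudocount and centring move only the fold change, the fold rule adds a filter, and the others re-adjust the same p-values. With p-values this small they could hardly change the calls of Isl1, Ebf1 and Tac1. Their highest adjusted p was 8.05e-25 for Isl1, 1.38e-09 for Ebf1 and 1.69e-08 for Tac1. Drd1, Chrm4, Eya1 and Sfxn1 passed under none that could include them; Drd1 and Chrm4 have no value at a higher mean of at least 2. Over all genes, 132 passed, and 51 after adjustment among genes of 300 nt or more alone, because many called genes are shorter. Meis2 no longer passed once a fold change of 1.5 was required. Leaving out each library and another library scaling were not run. No paired analysis was possible because the columns of single libraries carry no replicate number or group.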
